A study of Mus musculus with 4 samples.

Results

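Unplaced contigs are stretches of the mouse assembly mm9 that could not be positioned on a chromosome; they carry chromosome names ending in _random, and chrUn_random strings together those with no known chromosome at all. All listed sites with such a name were taken, 4966 of 472220 sites over 4 lists. The assay was MAB-Seq, in which methylase treatment precedes bisulfite sequencing, and the DNA came from mouse embryonic stem cells of the line E14. Wild-type cells gave 2 whole-genome libraries, here replicates 1 and 2, and the labels do not say whether they came from separate cultures. Reduced-representation libraries, made from DNA cut with MspI, came from cells carrying either a control shRNA (1 library) or 1 that targets Tdg (1 library). All 4 DNA samples were treated with the CpG methyltransferase M.SssI before bisulfite. How far Tdg was depleted was not analysed here.

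TET enzymes oxidise 5-methylcytosine stepwise, and the glycosylase TDG removes the last products, 5-formylcytosine and 5-carboxylcytosine. M.SssI methylates plain CpG cytosines. A CpG cytosine that is nevertheless read as converted may have borne either product or been missed by M.SssI, and a T in a repeat copy that differs from the assembly is read the same way. The lists do not tell these apart. Levels here are percentages of converted reads, after the authors' subtraction of a background. Unplaced sequence of the mouse is rich in tandem repeats, which assemble poorly. The best known, the major satellite, lies next to the centromeres, is packed as heterochromatin, and has a unit of 234 bp made of shorter, related segments. Reads from such repeats can match many copies.

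Sequence was deposited for replicate 1, as 5 bases centred on each plus-strand cytosine. The contexts below, with the CpG in capitals, are the 5 most frequent on unplaced contigs and, last, the 2 that were most frequent in the clusters of minus-strand sites described below.
Most frequent: aaCGt
Next: ggCGa
Next: aaCGa
Next: caCGg
Next: aaCGc
In minus clusters: caCGt
In minus clusters: ctCGc
A cytosine flanked as gCGa reads tCGc on the other strand, whereas aCGt reads the same on both.

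Unplaced contigs held a small share of each list, and of the full lists the share was largest in the Tdg shRNA library. Replicate 1 listed 2483 sites there, 0.748% of its list (exact 95% interval 0.719% to 0.778%), and replicate 2 listed 2164, or 1.83% (1.75% to 1.90%). The control shRNA library listed 39 sites, or 0.302% (0.215% to 0.413%), and the Tdg shRNA library 280, or 3.13% (2.78% to 3.51%). Among stronger sites only, with levels of at least 10% or p-values of at most 1e-04, the order of the highest 2 turned, with 5.12% in replicate 2 and 3.60% with Tdg shRNA. All intervals cover counting error only, and nearby sites, which can share reads, are not independent. No test between groups was possible with 1 library per shRNA and different units in the 2 whole-genome lists. Read depth is known for replicate 2 alone, from its p-values. There, recovered depth had a median of 21 reads on unplaced contigs (quartiles 14 and 45, 965 sites) and 13 on placed chromosomes (11 and 19). Reads were recovered for 44.6% of its unplaced sites, since 55.4% (53.3% to 57.5%) had p-values at or below 1e-07, against 13.9% on placed chromosomes.

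Most of these sites lay on chrUn_random. It held 1841 sites of replicate 1, 1942 of replicate 2, 13 of control shRNA and 256 of Tdg shRNA, 4052 in all. Of the other contigs, chr1_random had 258 sites, chrY_random 231, chr8_random 158, chr4_random 100, chr9_random 89 and chrX_random 61. On chr17_random and chr13_random 10 and 7 sites were listed. The contigs differed in level. The median in replicate 1 was 21.4% on chrUn_random, 21.8% on chrX_random, 17.1% on chr9_random, 15.3% on chr4_random, 13.2% on chr1_random, 11.6% on chrY_random and 5.98% on chr8_random.

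Listed CpGs were crowded into a few stretches of chrUn_random. CpGs of all 4 libraries were chained where the next lay within 5 kb, and chains of at least 10 CpGs were called clusters. Of 3587 CpGs, 82.5% fell into 41 clusters, 24 of them on chrUn_random. The 13 largest, each with over 100 CpGs, all lay on chrUn_random between positions 3549411 and 5900233 and held 64.8% of the CpGs in 337 kb. The next largest had 56 CpGs. The 13 largest were each 10.7 to 55.3 kb long. Without replicate 2 there were 35 clusters, 7 of them with over 100 CpGs, and without replicate 1 25 and 10. With chains of 1 kb there were 72 clusters, 5 of them with over 100 CpGs. The 13 clusters held 60.2% (58.2% to 62.1%) of the unplaced sites of replicate 1, 79.6% (77.9% to 81.3%) of those of replicate 2 and 84.3% (79.5% to 88.3%) of those of Tdg shRNA. Control shRNA had 6 of its 39 sites in them. Each list helped to form the clusters, so these shares are not independent of the cluster rule. The clusters are numbered below by their count of CpGs.

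Cluster 1, from 4050475 to 4078732, had 264 CpGs and listed 258 sites in replicate 1, 108 plus-strand and 3 minus-strand sites in replicate 2, and 6 sites with Tdg shRNA. Cluster 2, from 5473897 to 5497219, had 241 CpGs, with 196 sites in replicate 1, 126 plus and 50 minus in replicate 2, and 44 with Tdg shRNA. Cluster 3, from 3902606 to 3928426, had 228 CpGs, with 182 sites, 127 plus and 48 minus, and 27 with Tdg shRNA. These clusters were well filled in both whole-genome libraries. Cluster 4, from 3549411 to 3582084, had 221 CpGs, with 201 sites, 135 plus and 18 minus, and 19 with Tdg shRNA. Cluster 5, from 4736067 to 4774505, had 197 CpGs but only 23 sites in replicate 1, against 32 plus and 155 minus in replicate 2, and 30 with Tdg shRNA. Cluster 6, from 5547531 to 5602833, had 169 CpGs, with 96 sites, 50 plus and 89 minus, and 7 with Tdg shRNA. The strands were thus unequally filled, and in different directions. Cluster 7, from 4516825 to 4536720, had 165 CpGs, with 20 sites in replicate 1, 17 plus and 132 minus in replicate 2, and 26 with Tdg shRNA. Cluster 8, from 5879994 to 5900233, also had 165 CpGs, with 148 sites, 97 plus and 9 minus, and 23 with Tdg shRNA. Cluster 7 was almost empty in replicate 1, which lists plus-strand cytosines only, and cluster 8 was not.

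Of the other 5 large clusters, all but cluster 13 repeated this contrast. Cluster 9, from 5161787 to 5188534, had 6 sites in replicate 1, 7 plus and 149 minus in replicate 2, and 9 with Tdg shRNA. Cluster 10, from 5317944 to 5342101, had 156 sites, 95 plus and 4 minus, and 8 with Tdg shRNA. Cluster 11, from 5806121 to 5816789, had 125 sites, 81 plus and 4 minus, and 7 with Tdg shRNA. Clusters 9 and 10 had 162 CpGs each and were filled mostly on opposite strands. Cluster 12, from 5238962 to 5256427, had 9 sites, 19 plus and 95 minus, and 23 with Tdg shRNA. Cluster 13, from 4249054 to 4262654, had 74 sites, 43 plus and 30 minus, and 7 with Tdg shRNA. Median recovered depth in replicate 2 was between 20 and 42.5 reads in all 13 clusters.

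The 17 clusters on the other contigs were small. The largest was on chr9_random from 49003 to 60082, with 48 CpGs, 26 sites in replicate 1 at a median of 11.9%, 25 in replicate 2, and 3 of 15 plus-strand sites shared. On chr4_random from 124640 to 132702 there were 46 CpGs, 39 sites at a median of 22.2%, 23 in replicate 2, and 8 of 9 plus-strand sites shared. On chrX_random from 1031151 to 1051103 there were 26 CpGs, and 19 sites with a median of 59.1%. The median level thus differed between these 3 clusters. These clusters together held few Tdg shRNA sites, at most 2 in any 1 of them.

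**Figure D1:**
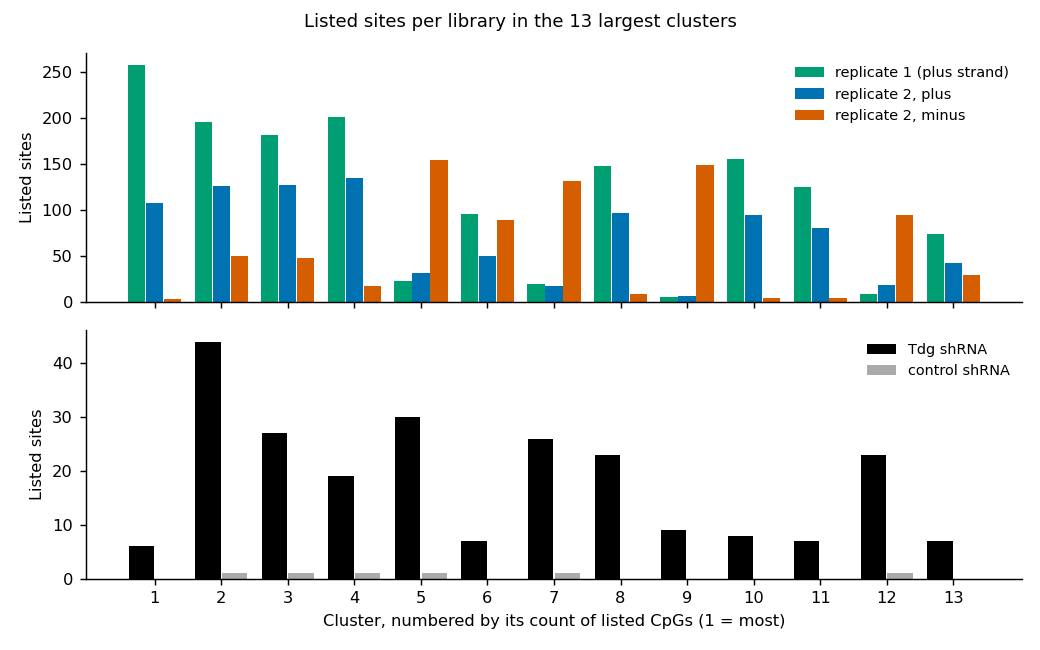
Listed sites per library in the 13 clusters of chrUn_random with over 100 listed CpGs. The upper panel counts sites of replicate 1 (plus strand) and of each strand of replicate 2, the lower panel sites of the Tdg and control shRNA libraries; clusters 5, 7, 9 and 12 had 6 to 23 sites in replicate 1, and no cluster had over 1 control shRNA site.

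Within most large clusters the listed cytosines sat on a single strand. Over all unplaced contigs the strands of replicate 2 were nearly balanced, with 1160 plus and 1004 minus sites, or 53.6% plus (51.5% to 55.7%), and on placed chromosomes 49.9% were plus. This balance hid opposite clusters. Calling a cluster oriented where at least 80% of its replicate 2 sites shared a strand, a limit set after the values were seen, 5 of the 13 were plus (88.2% to 97.3% plus-strand sites) and 4 were minus (4.49% to 17.1%). The most uneven were cluster 1, with 97.3% plus, and cluster 9, with 4.49% plus. At a limit of 90% 5 clusters were oriented, and at 70% 11 were.

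Replicate 1 was split in the same way. It was not used to orient the clusters, but its CpGs counted towards their size limit. Its site counts are thus not independent of how the clusters were chosen. In the 5 plus clusters replicate 1 listed 888 and replicate 2 554 sites, with 125 to 258 replicate 1 sites per cluster. In the 4 minus clusters replicate 1 listed 58 and replicate 2 606, with 6 to 23 per cluster. The levels differed as well. The median level of replicate 1 was 19.2% to 27.6% in each plus cluster and 0 in each minus cluster, where 43 of 58 sites (74.1%, interval 61.0% to 84.7%) were listed at 0. In the plus clusters 8 of 888 sites, or 0.901%, were at 0.

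The strand mix of the remaining 4 clusters changed along their length, from mostly 1 strand to mostly the other in clusters 13 and 3 and from mostly 1 strand to a mixture in clusters 6 and 2. In cluster 13 the first 4 kb held 4 plus and 25 minus sites and the rest 39 and 5. In cluster 3 the first 20 kb held 116 plus and 16 minus sites and the rest 11 and 32. Cluster 6 had 7 plus and 55 minus sites in its first 10 kb and 43 and 34 beyond. In cluster 2 the first 14 kb held 66 plus and 2 minus sites and the rest 60 and 48. These borders were placed after the positions were seen. Whether they are joins between contigs of the assembly was not tested.

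**Figure D2:**
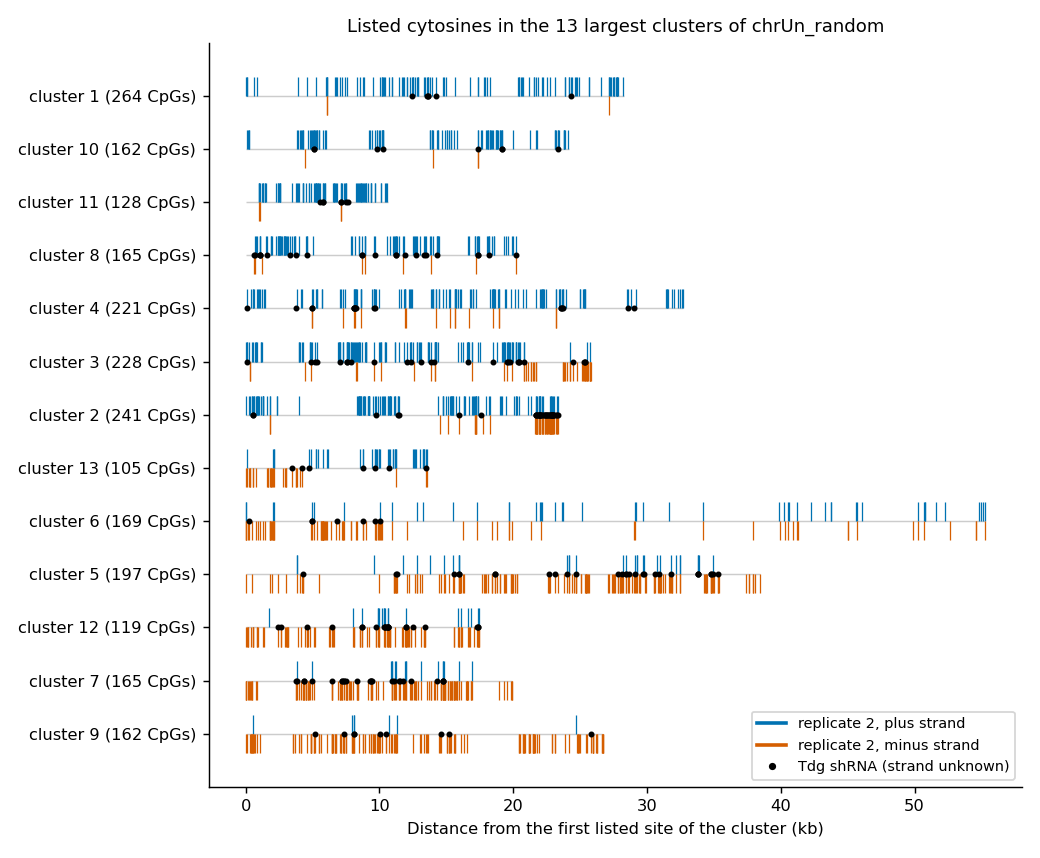
Positions of listed cytosines in the 13 largest clusters, as distance in kb from the first listed site. Blue ticks above each line are plus-strand and orange ticks below it minus-strand sites of replicate 2, and black points are Tdg shRNA sites; rows run from the most plus-stranded (cluster 1) to the most minus-stranded (cluster 9), with the 4 clusters that hold both strands between them.

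Both cytosines of a CpG were listed more often on unplaced contigs than on placed chromosomes. In replicate 2 this held for 169 of 1995 unplaced CpGs, or 8.47% (7.29% to 9.78%), and for 0.631% (0.587% to 0.679%) on placed chromosomes. In the Tdg shRNA library, whose file does not tell strands apart, 19 pairs of adjacent positions were listed on unplaced contigs, taking up 13.6% of its sites, against 3.58% on placed chromosomes. The control shRNA library had no such pair among its 39 sites, but on placed chromosomes its pairs took up only 0.218% of 12856 sites. So few unplaced control sites cannot show a difference. Unplaced sites were deeper in replicate 2, as given above, and the part of depth in these shares was not tested.

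The sequence around listed CpGs was far less varied than elsewhere. In replicate 1, aaCGt was found at 400 unplaced sites, 16.1% (14.7% to 17.6%), against 1.01% on placed chromosomes, a share larger by a factor of 15.9. The context ggCGa was found at 371 sites, 14.9% (13.6% to 16.4%), against 1.8%, and aaCGa at 125 sites, 5.03%, against 1.05%. The other 2 of the 5 most frequent, caCGg with 72 sites (2.90% against 2.37%) and aaCGc with 66 (2.66% against 1.01%), stood out less. Contexts with the MspI site CCGG made up 4.03% (3.29% to 4.88%) of unplaced and 10.3% of placed sites. How often each context occurs in the contigs themselves was not used here, so these are shares of a list, not rates per CpG.

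The frequent contexts belonged to the large clusters. In the 5 plus clusters 486 of 888 sites, 54.7% (51.4% to 58.0%), were aaCGt or ggCGa. In the 4 clusters with both strands it was 43.1% of 548 sites, and outside the large clusters 4.75% of 989 (3.51% to 6.27%), against 2.81% on placed chromosomes. The minus clusters had other contexts. There 2 of 58 plus-strand sites were aaCGt or ggCGa, and 33 were caCGt or ctCGc, of which 25 were at 0. In the plus clusters 6 sites were caCGt or ctCGc, in those with both strands 31, and outside the large clusters 30.

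Levels at the frequent contexts were middling and seldom 0. The median was 16.6% (quartiles 9.77% and 27.1%) at aaCGt and 20.6% (10.9% and 32.3%) at ggCGa, with 2.50% and 1.62% of sites at 0. On placed chromosomes the same contexts had medians of 11.3% and 11.1%, with 14.5% and 13.6% at 0. By contrast caCGt, listed at 58 unplaced sites, had a median of 0.052%, with 29 sites at 0. Replicate 2 listed 52.5% of the unplaced aaCGt and 57.7% of the ggCGa cytosines at the same base, and 31.0% of caCGt.

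Listed sites recurred at fixed distances. Among pairs of replicate 1 sites within 300 bp, the commonest distance on unplaced contigs was 58 bp, with 140 of 5626 pairs (2.49%), followed by 42 bp with 126 and 59 bp with 118. Distances of 117, 16, 17 and 75 bp came next, with 114, 101, 100 and 83 pairs. On placed chromosomes 58 bp made up 0.516% of pairs, and the commonest distances were 4, 2 and 12 bp. Replicate 2 showed the same distances on each strand, in lists that are not independent. Both of its strands were listed at 169 CpGs, and 956 of its 1160 plus-strand sites were also in replicate 1. On the plus strand of replicate 2 distances of 42, 58 and 117 bp led, with 55, 50 and 49 of the pairs. On its minus strand 42, 16 and 58 bp led, with 66, 55 and 55, and 39 pairs lay 234 bp apart. In the Tdg shRNA library, next to the 19 pairs of adjacent positions, 12 pairs each were 17 and 234 bp apart and 11 each 16 and 235 bp. Steps of 58 or 59 bp thus recurred at 117, 175 and 234 bp, the last being the length of the satellite unit. No repeat annotation or genome sequence was used here, so whether these stretches are copies of the major satellite was not tested.

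**Figure D3:**
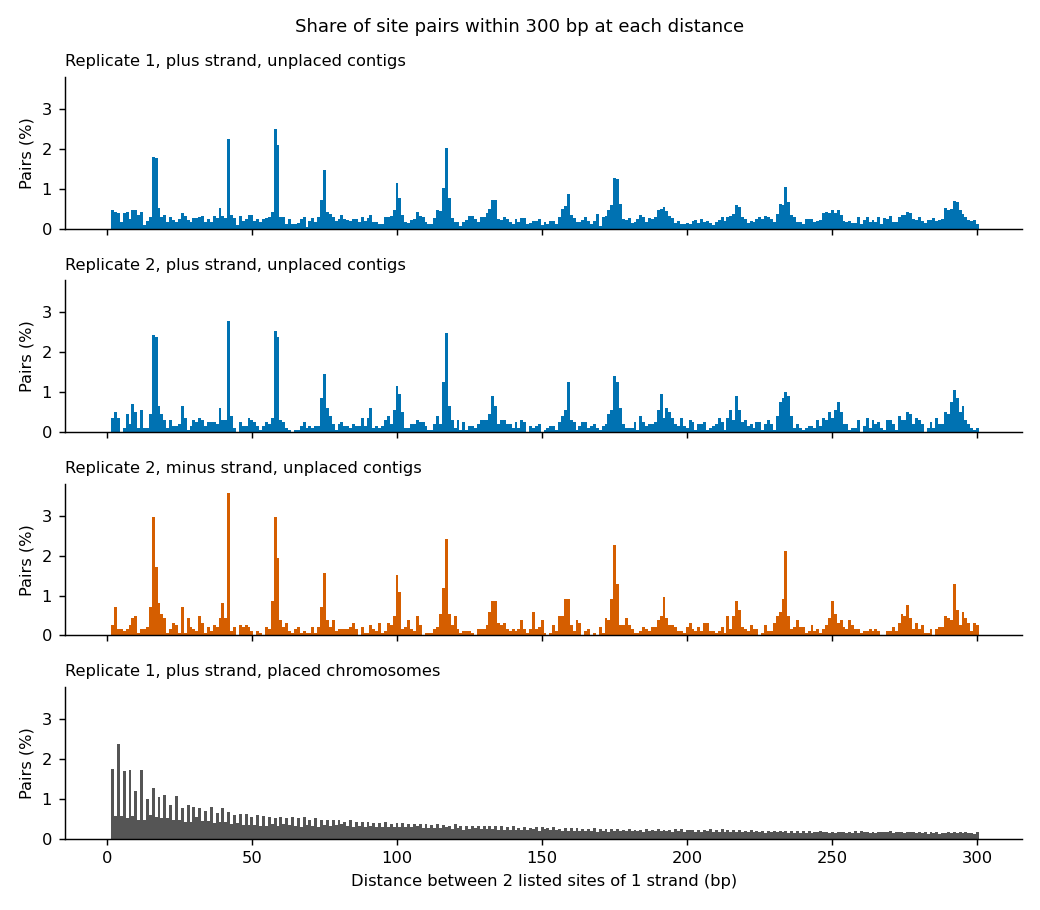
Share of all pairs of listed sites within 300 bp of each other, by distance in bp, for each strand of the whole-genome libraries on unplaced contigs and for replicate 1 on placed chromosomes. Peaks near 16, 42, 58, 75, 117, 175 and 234 bp recur in the 3 upper panels; in the lowest panel 16 bp also stands above its neighbours, while 58 and 117 bp make up 0.516% and 0.300% of pairs.

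The 2 commonest contexts lay at preferred distances from each other. From aaCGt to a following ggCGa the commonest distance was 42 bp, with 63 of 327 pairs within 300 bp (19.3%), and from ggCGa to aaCGt it was 17 bp with 57 and 75 bp with 44 of 359 pairs. Between 2 aaCGt it was 117 bp (42 of 363 pairs), then 58 and 59 bp (35 each). The longest run of closely spaced sites, with the next replicate 1 site always within 60 bp, gives an example. It lay in cluster 2, began at 5474367 and held 17 sites in 508 bp. It opened with aaCGt at a level of 18.9%, then ggCGa 42 bp on at 27.9%, aaCGt at 59 bp with 11.3%, and ggCGa at 101 bp with 21.4%. An added ctCGc at 135 bp was at 84.0%. Then came ggCGa at 159 bp (23.0%), aaCGa at 175 bp (37.9%), aaCGt at 234 bp (25.9%) and aaCGt at 292 bp (22.3%). These 8 sites, the ctCGc aside, were at 11.3% to 37.9%. The 8 further sites, to the end of the run, ranged more widely, from ggCGa at 334 bp (9.69%) to tgCGg at 507 bp (69.0%), with aaCGa at 350 bp (60%) and ggCGa at 451 bp (53.1%) among them. The frequent contexts thus had no common level along the run. The Tdg shRNA library listed the sites at 59 and 101 bp, at 5.56% and 5.58%. The next longest runs had 10 sites each. The first, at 5873133, again opened with aaCGt (4.23%), followed after 42 bp by ggCGg (17.1%), and held ccCGa at 100% 51 bp from its start. In the second, in cluster 8 at 5881034, Tdg shRNA listed caCGg at 28.4%, taCGg at 100% and ggCGa at 39.7%, where replicate 1 had 8.04%, 88.7% and 10.4%. Neighbouring CpGs of a run could thus lie at opposite ends of the range.

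Exact sharing between the whole-genome libraries was high for plus-strand sites of replicate 2. Of the 1160 plus-strand unplaced sites of replicate 2, 956 were listed at the same base in replicate 1, or 82.4% (80.1% to 84.6%), where the whole series had 35.3% and placed chromosomes 34.3%. In the windows of satellite repeats on placed chromosomes, whose positions are given with their other values, the share was 64.9% (57.7% to 71.7%) on chromosome 9 and 95.1% (83.5% to 99.4%) on chromosome 2. The share was 84.7% on chrUn_random and 55.9% (45.2% to 66.2%) on the other contigs together, where it ran from 6 of 18 sites on chr9_random to 15 of 18 on chr8_random. It was also higher at matched strength of evidence. Among sites with p-values above 1e-04, 67.9% (62.3% to 73.2%) of unplaced and 27.4% of placed sites were shared, and at or below 1e-07 90.1% (87.5% to 92.4%) and 64.8%. Sites were not matched on depth. The largest numbers of shared sites lay in cluster 4 with 125, cluster 2 with 117, cluster 3 with 114, cluster 1 with 102 and cluster 10 with 91. In the 5 plus clusters 93.8% of the plus-strand sites of replicate 2 were shared, and in the 4 minus clusters 19 of 75. Seen from replicate 1 the share was lower. The 956 shared sites were 38.5% (36.6% to 40.4%) of its 2483 unplaced sites, against 6.06% on placed chromosomes.

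Minus-strand sites can be shared only by CpG, since replicate 1 gives the plus-strand cytosine. Of 1004 such unplaced sites 229 lay at a CpG listed in replicate 1, or 22.8% (20.2% to 25.5%), where the whole series had 12.5%. The level in replicate 1 differed with the strand that replicate 2 listed. Replicate 1 sites that replicate 2 listed on the plus strand had a median level of 28.4% (quartiles 14.8% and 51.4%), with 4.08% at 0. The 117 that it listed on the minus strand only had a median of 0, with 50.4% (41.0% to 59.8%) at 0, against 69.8% on placed chromosomes. The 1410 listed in replicate 1 alone had a median of 14.1%.

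Levels on unplaced contigs were higher than on placed chromosomes in each library that gave levels. In replicate 1 the median was 18.7% (interval 17.3% to 19.7%) against 11.1%, and 10.8% of sites were at 0 against 20.1%. With Tdg shRNA it was 27.6% (22.4% to 36.4%) against 12.5%, and with control shRNA 15.2% (12.5% to 35.6%) against 9.89%. The upper end differed more. Sites at 90% or above made up 4.43% of unplaced and 2.07% of placed sites in replicate 1, 24.3% and 7.11% with Tdg shRNA, and 23.1% and 5.13% with control shRNA. In replicate 1 the difference came from chrUn_random, with a median of 21.4%, whereas the other contigs together had 12.1%. For replicate 2 the recovered reads gave a median of 25% converted on unplaced contigs and 27.3% on placed chromosomes, before any correction and without its strongest sites.

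**Figure D4:**
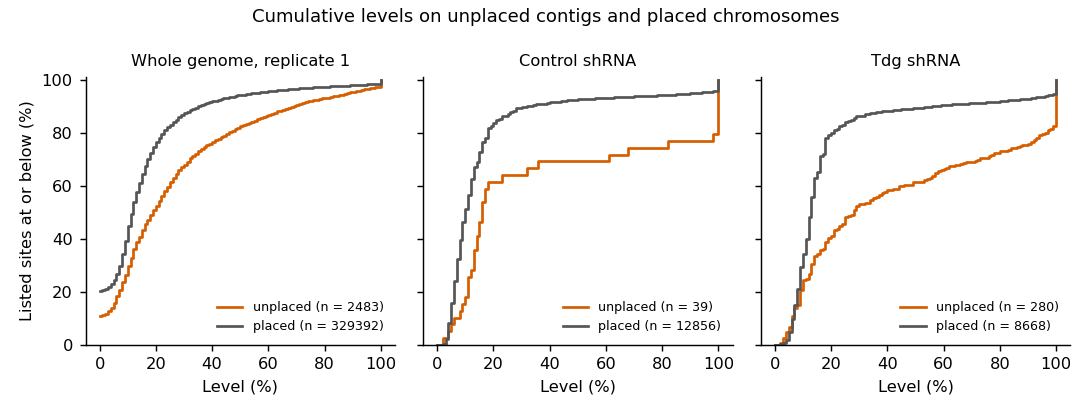
Cumulative share of listed sites by level in percent, for the 3 libraries that give levels, on unplaced contigs (orange) and placed chromosomes (grey). The unplaced curves lie to the right over most of the range, with medians of 18.7%, 15.2% and 27.6% in replicate 1, control shRNA and Tdg shRNA, and step up at 100% in both shRNA libraries.

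The Tdg shRNA library listed more unplaced sites than the control shRNA library, although it listed fewer sites on placed chromosomes. On unplaced contigs 280 sites stood against 39, so that the ratio was 7.18 (5.12 to 10.3). For placed chromosomes 8668 stood against 12856, or 0.674 (0.656 to 0.693). The excess lay in the large clusters of chrUn_random, with 236 sites against 6 (ratio 39.3, interval 17.8 to 108). Outside them unplaced contigs had 44 and 33 sites, a ratio of 1.33 (0.830 to 2.16), and the contigs other than chrUn_random 24 and 26. Tdg shRNA sites counted towards the clusters and their size limit, which was set after the values were seen. The ratios inside and outside the large clusters are thus not independent of how the clusters were chosen. With 1 library per group there is no replicate check, and the depth of both libraries is unknown.

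Of the 280 Tdg shRNA sites 266, or 95.0% (91.8% to 97.2%), were absent from control shRNA at the same base, where the whole series had 82.5%. These 2 shares cannot be compared directly. With only 39 unplaced control sites most of the 280 had to be absent, whereas in the whole series control shRNA listed 12895 sites and Tdg shRNA 8948. By location 232 of the 266, 87.2% (82.6% to 91.0%), lay in the 13 large clusters, 14 in smaller clusters and 20 elsewhere. Cluster 2 held 43, cluster 5 held 30, cluster 3 held 26, cluster 7 held 25, and cluster 8 and cluster 12 held 23 each. These clusters include both orientations. The count did not follow the number of CpGs, since cluster 1, the largest, held 6.

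These sites were mostly cytosines that wild-type whole-genome DNA also listed. Of the 266, 230 were listed at the same base in replicate 1 or 2, or 86.5% (81.8% to 90.3%), where the whole series had 14.8% and placed chromosomes 12.1%. In the satellite windows it was 91.4% (87.7% to 94.3%) on chromosome 9 and 86.3% (73.7% to 94.3%) on chromosome 2. Replicate 1 listed 105 of them, and 89 were in both libraries. On its plus strand replicate 2 held 98, and 116 on its minus strand. The share was 39.5% without replicate 2 and 80.5% without replicate 1. In the large clusters 212 of 232 were listed, and outside all clusters 7 of 20. The cluster rule partly fixes this contrast, since clusters are crowded stretches of listed CpGs. The large ones held 1494 sites of replicate 1 and 1723 of replicate 2, against 236 of Tdg shRNA. The strand of these Tdg shRNA sites is unknown. The whole-genome sites they coincided with were mostly on the strand that filled the cluster, which the make-up of those lists largely fixes. In the plus clusters 47 of 62 coincided with a plus-strand site of either replicate and 7 with a minus-strand site of replicate 2. In the minus clusters the numbers were 15 and 66 of 87. With the sites shared with control shRNA included, 110 Tdg shRNA sites lay at a base listed in replicate 1. The commonest contexts there were ggCGa with 30, aaCGt with 17 and ctCGc with 11 sites, and 2 sites were at CCGG.

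Levels of the 266 Tdg shRNA sites absent from control shRNA spread over the whole range. The median was 25.8% (quartiles 10.7% and 81.9%), against 11.4% for such sites on placed chromosomes, and 60 of 266 (22.6%) were at 90% or above, against 2.63%. At the 105 sites that replicate 1 listed at the same base, the medians were 22.9% with Tdg shRNA and 23.1% in replicate 1. The median difference of Tdg shRNA minus replicate 1 was 5.35 percentage points (0.515 to 8.46), and 66 sites were higher, 37 lower and 2 equal. On placed chromosomes the difference was 5.10 points (3.53 to 6.11). Both sets of sites were chosen because Tdg shRNA listed them. That library had 0 unplaced sites at a level of 0, against 268 of 2483 in replicate 1. The choice can favour higher levels with Tdg shRNA, and nearby sites are not independent. The assays also differ, so the difference is not one between shRNA and wild type. Between clusters the medians ran from 7.22% in cluster 2 to 88.3% in cluster 1.

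Most Tdg shRNA sites of cluster 2 lay in its last 2 kb, from 5495233 to 5497219. This stretch held 37 of its 44 Tdg shRNA sites, at a median level of 6.93% and with 32 below 20%. The other 7 had a median of 43.6%. The stretch differed in the whole-genome libraries too. Replicate 2 listed 19 plus-strand and 38 minus-strand sites there, with 18 CpGs on both strands, and a median recovered depth of 243.5 reads at 12 sites, against 28 reads in the rest of the cluster. In replicate 1 19 of its 31 sites were at 0, and none of the 165 before it. Control shRNA listed 1 site in it. The stretch was singled out after its values were seen.

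Windows on chromosomes 9 and 2 that are known to users of the mouse assembly for satellite repeats gave partly similar values. On chromosome 9 from 3000001 to 3040000 there were 352 sites with Tdg and 51 with control shRNA (ratio 6.90, interval 5.13 to 9.45). On chromosome 2 from 98500001 to 98510000 there were 72 and 22 (ratio 3.27, interval 2.01 to 5.54). Both strands of a CpG were listed at 40.4% of CpGs on chromosome 9, above the 8.47% of unplaced contigs. Levels were unlike. The median in replicate 1 was 0 on chromosome 9 and 3.66% on chromosome 2, against 18.7% on unplaced contigs, and with Tdg shRNA it was 9.80% and 6.34% against 27.6%. On chromosome 9, where 67.7% of replicate 2 sites were on the minus strand, caCGt and ctCGc made up 199 of 322 replicate 1 sites and 138 of these were at 0. In the minus clusters it was 33 of 58, with 25 at 0. Median recovered depth in replicate 2 was 156 reads on chromosome 9 (181 of 591 sites) and 700 on chromosome 2 (9 of 77 sites), against 21 on unplaced contigs. Sites with p-values at or below 1e-07 are left out of these medians. The part of depth in these differences was not tested.

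The control shRNA sites were spread over 6 contigs. There were 13 each on chrUn_random and chrY_random, 6 on chr9_random, 3 each on chr1_random and chr4_random and 1 on chr8_random. Of these 14, or 35.9%, were listed with Tdg shRNA, where the whole series had 12.2%. They make up 5.00% of the Tdg shRNA sites. Nearly all control sites of high level were among them. Of the 9 control sites at 90% or above 8 were listed with Tdg shRNA, and of the 30 below 90% 6 were. The whole-series share by level is not given here, so this is not shown to be particular to unplaced contigs. Among the 14 shared sites 6 were at 100% in both libraries. The level was lower with Tdg shRNA at 7 and higher at 1, on chrUn_random at 3233146, with 55.04% against 31.3%. The other differences were at most 5.87 points. On chrY_random several control sites lay side by side, at 4551015, 4551017 and 4551019 with 11.7%, 16.3% and 35.6%, and at 5992282 and 5992284 with 15.2% each. None of these was listed with Tdg shRNA. The single sites named here were chosen after their values were seen.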

How the data were processed

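CpG sites were called by the authors in 4 MAB-Seq libraries. Build mm9, Bismark 0.10.1 and CASAVA 1.8 were used, per the submitters' processing notes; the calling rule is not given in the sources used here. The deposited value was a percent of converted reads for replicate 1 and both shRNA libraries, from which, as judged by the values, backgrounds of 3%, 2.9% and 3.3% had been subtracted. For replicate 2 the deposited value was a p-value. With a background of 3.8%, 101128 of 101158 p-values above 1e-07 matched exactly 1 pair of total and converted reads (binomial upper tail, relative tolerance 1e-08, up to 20000 reads), which gave its depth; the depth of the other libraries is unknown. The other deposited entry, in replicate 1, was a 5-base context.

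Positions are 1-based mm9. Minus-strand sites were assigned to the plus-strand cytosine of their CpG for clusters. Both shRNA files mark every site as plus, so the strand there is unknown. Shares have exact (Clopper-Pearson) 95% intervals, ratios the conditional binomial and medians the order-statistic interval, computed with Python 3.11.15 and SciPy 1.17.1. Read recovery and chaining were tested on simulated data, whose depths fell short of the largest depths recovered here. Regions were named by rule: the 8 clusters with most CpGs, the 5 with most shared sites, the 5 with most Tdg-only sites (ties kept), contigs with at least 20 sites (the 2 smaller ones are added for completeness) and the 5 commonest contexts; the other large clusters, 3 small ones, the runs' contexts, caCGt and ctCGc were added after their values were seen. The windows on chromosomes 9 and 2, the size limit of 100 CpGs and the strand borders were also set so. Members, rules and lists were chosen with earlier results of these data known. Gene annotation of mm9 was not used here.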

Additional observations from a re-analysis of the deposited data

How the results depend on the processing

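The counts of unplaced sites depend on the choice of contigs. With chrUn_random alone the shares were 0.555%, 1.64% and 0.101% in replicate 1, replicate 2 and control shRNA, the ratio of Tdg to control shRNA was 19.7, exact sharing was 84.7%, and the median level was 21.4% in replicate 1 and 67.2% (13 sites) with control shRNA. Without the clusters above 100 CpGs, an alternative chosen after seeing the data, the ratio was 1.33. With levels of at least 10% or p-values at most 1e-04 the shares were 0.944%, 5.12%, 0.506% and 3.60% in replicate 1, replicate 2, control and Tdg shRNA, and with merged strands that of replicate 2 was 1.70%. Sharing was 53.8% over CpGs of both strands, 88.4% within 100 bp, 87.5% for p-values at most 1e-04 and 79.1% without replicate 1 sites at 0. The number of clusters was 72 with chains of 1 kb, 72 from 5 CpGs, 26 from 20 CpGs, and 25 to 35 when replicate 1 (25) or replicate 2 (35) was left out. Those above 100 CpGs numbered 5 with chains of 1 kb and 7 to 10 without replicate 2 (7) or replicate 1 (10). At a limit of 90%, also chosen after seeing the data, 5 large clusters were oriented. The median level of replicate 1 was 21.5% without sites at 0 and 21.1% before background correction. Among sites also in replicate 2, aaCGt made up 22.0% and ggCGa 22.4%, and without sites at 0 ggCGa made up 16.5%. Of Tdg shRNA sites absent from control shRNA, 95.5% had a whole-genome site within 100 bp, and 39.5% to 80.5% were listed without replicate 2 (39.5%) or replicate 1 (80.5%). In all, 21 of 53 values stayed within the interval, or within 1.5 times the count, of the reported value. The causes were not tested, apart from what an alternative removes by construction. No paired analysis was possible because each shRNA group had 1 library and the whole-genome lists hold different units. Depth limits what can be called: a site absent from a list is not shown to be unmodified.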
